A study of Mus musculus with 10 samples.

Results

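The interleukin-6 (IL6) family cytokines and the signals that act just ahead of them were followed as 10 genes in regenerating mouse liver: the ligand genes Il6 and Osm, the inflammatory cytokine genes Tnf and Il1b, the receptor genes Il6ra, Il6st, Osmr and Lifr, the transcription factor gene Stat3 and the feedback inhibitor gene Socs3. They were chosen by name, and their Ensembl identifiers were found for all 10 among the 55487 genes of each of 2 count tables. Both tables hold bulk RNA sequencing of liver after partial hepatectomy (PHx), an operation that removes most of the liver and after which the remnant regrows. The mice were labelled as male C57BL/6J animals of 8 weeks, with no transgene named. In the diet experiment, 3 mice were fed a high-fat diet (HFD) and 3 mice chow during the 7 days leading up to PHx, and the regrowing liver was sampled at 40 hours. In the inhibitor experiment, 40 mg/kg of SSO or the solvent alone (vehicle) was injected on the day before PHx, and sampling was at 48 hours. SSO is given by this abbreviation only. The same letters are in common use for sulfosuccinimidyl oleate, a chemical that blocks fatty acid uptake through CD36. The labels state 8 mice per group in the inhibitor experiment while the table has 4 libraries per group, and whether a library is 1 mouse or a pool was not stated, so the tests below measure the spread between libraries. All groups had undergone PHx, and no unoperated liver is among them.

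In the textbook account of liver regeneration, gut-derived and injury signals act on Kupffer cells, the resident macrophages of the liver, which release tumour necrosis factor (the product of Tnf) and IL6. IL6 binds its receptor chain (Il6ra), and the complex then engages the shared signalling chain gp130 (Il6st), while oncostatin M (Osm) and leukaemia inhibitory factor use gp130 together with their own chains, Osmr and Lifr. The receptors activate JAK kinases and STAT3 in hepatocytes, which brings about the acute-phase programme and the induction of SOCS3, an inhibitor that shuts the pathway off and makes the response short-lived.

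The 250 bases upstream of the transcription start of Il6 and Socs3 are shown because these genes are the regulated output of the NF-kB and STAT3 branches of the pathway. Sequences are from RefSeq (GRCm38.p6), 5′ to 3′ on the strand of the gene, for chr5:30012864-30013113 (plus strand, Il6) and chr11:117969367-117969616 (minus strand, Socs3). Capitals mark the matches to 3 motifs searched on both strands.
Il6: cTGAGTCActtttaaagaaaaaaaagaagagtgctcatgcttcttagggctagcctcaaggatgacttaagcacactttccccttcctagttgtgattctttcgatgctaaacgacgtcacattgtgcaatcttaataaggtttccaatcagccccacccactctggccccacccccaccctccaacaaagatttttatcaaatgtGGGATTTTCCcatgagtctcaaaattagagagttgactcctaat
Socs3: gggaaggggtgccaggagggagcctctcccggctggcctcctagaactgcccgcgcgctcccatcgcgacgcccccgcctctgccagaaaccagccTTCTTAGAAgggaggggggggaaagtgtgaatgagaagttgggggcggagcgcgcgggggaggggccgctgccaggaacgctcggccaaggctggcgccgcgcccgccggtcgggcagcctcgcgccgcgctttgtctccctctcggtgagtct
A promoter sequence was available for 9 of the 10 members. The window searched ran from 250 bases before to 50 bases after the start. Starts are those of RefSeq, and those of Socs3, Osmr and Lifr lay inside the gene spans of the other annotation given below. The NF-kB motif GGGNNTTTCC occurred in the Il6 promoter, starting 44 bases before the start site, and in 1.63% of the 32851 promoters of the table. The AP-1 motif TGANTCA lay 249 bases before the Il6 start and 4 bases after the Osmr start, and in 7.81% of all promoters. The STAT motif TTCNNNGAA was found 154 bases before the Socs3 start and in 8.30% of all promoters. None of the motif matches overlapped another. These are matches of letters, not measured binding.

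By the GENCODE M21 annotation (GRCm38), Il6 (ENSMUSG00000025746) spans chr5:30013114-30019981, Osm (ENSMUSG00000058755) chr11:4236420-4241026, Tnf (ENSMUSG00000024401) chr17:35199381-35202007 and Il1b (ENSMUSG00000027398) chr2:129364570-129371139. The receptor genes are Il6ra (ENSMUSG00000027947) at chr3:89864059-89913196, Il6st (ENSMUSG00000021756) at chr13:112464070-112510086, Osmr (ENSMUSG00000022146) at chr15:6813577-6874969 and Lifr (ENSMUSG00000054263) at chr15:7090614-7197489, the last 2 being neighbours on 1 chromosome. Stat3 (ENSMUSG00000004040) lies at chr11:100885098-100939540 and Socs3 (ENSMUSG00000053113) at chr11:117966079-117970047. All are protein coding, and a count is a read assigned to the exons of the gene. Exons of other genes overlap 2.8% of the exon length of Il6ra, 1.31% of Il1b and 0.756% of Stat3 (its neighbour Stat5a), in each case from the other strand, and none of the remaining members, so reads of neighbours can enter their counts only to a small extent.

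Library totals ran from 31912664 to 39910561 counts (diet) and from 25204205 to 30388236 counts (inhibitor). Expression is given as CPM (counts per 1000000), with library totals scaled by the TMM method, which corrects for differences in RNA composition. On this scale 3 counts, the floor below which a level is not distinguished from 0, equal 0.0769 to 0.0921 CPM for diet and 0.0815 to 0.136 CPM for inhibitor libraries. Such limits cover counting error only. In keeping with the tissue label, 9 listed hepatocyte genes summed to 64366 to 111780 CPM. The libraries of the inhibitor experiment went against the label on sex: all 8 held Xist at 697 to 1771 CPM and none held a count of the Y-linked genes Ddx3y, Kdm5d, Eif2s3y or Uty, whereas the diet libraries held Ddx3y at 54.9 to 76.3 CPM and Xist at no more than 0.620 CPM. Vehicle 1 and vehicle 3 stood apart from the other 6 libraries of their experiment on the first principal component (53.9% of variance, scores -81.3 and -76.2 against -0.58 to 36.3). The share of mitochondrially encoded counts ran from 4.99% to 22.5% in vehicle, 15.2% to 17.6% in SSO and 6.56% to 9.96% in the diet experiment.

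Per kilobase of exon, Lifr, Il6st, Il6ra, Stat3 and Socs3 were expressed above the 4 cytokine genes in every group, and Osmr was near the cytokines. In the vehicle livers the level per kilobase was 23.2 ± 21.2 CPM for Lifr, 12.6 ± 2.48 for Stat3, 11.1 ± 3.63 for Il6st, 5.41 ± 1.54 for Socs3 and 3.44 ± 1.07 for Il6ra (mean ± SD, n = 4). Below these came Il1b at 1.28 ± 0.976, Tnf at 1.08 ± 1.34, Osmr at 0.988 ± 0.6002, Il6 at 0.369 ± 0.134 and Osm at 0.108 ± 0.125 CPM per kilobase (SD, n = 4). Lifr, Stat3 and Il6st could not be ordered beyond their spread, and neither could Il1b, Tnf and Osmr. At every other step between neighbours the means differed by more than either SD. In the chow livers Socs3 stood at the top with 19.9 ± 15.3 CPM per kilobase, next to Stat3 with 19.4 ± 5.58 (SD, n = 3). Osmr, at 0.838 ± 0.677 CPM per kilobase in chow, was the scarcest of the 4 receptor chains in all groups, and in the chow and vehicle livers its mean was less than that of Il6ra by more than both SDs. The order by mean is a description of these livers and places no gene by a test.

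**Figure D1:**
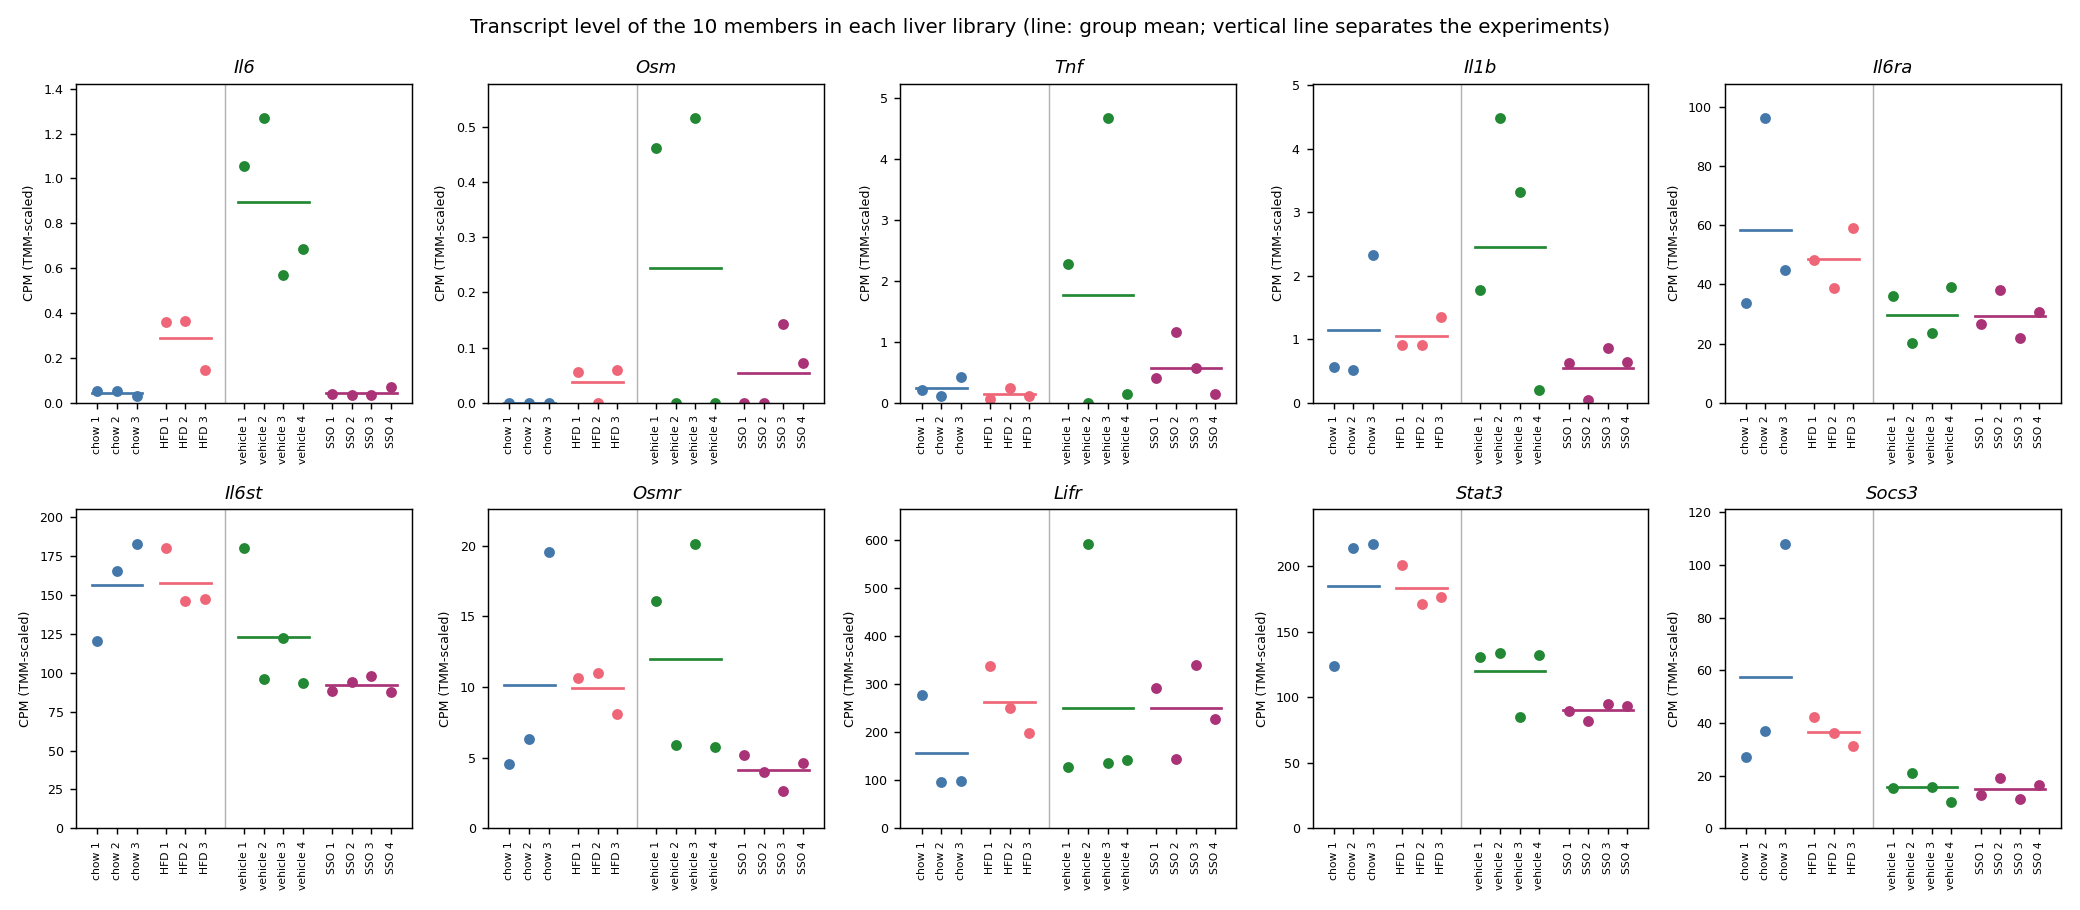
Level of each of the 10 members in each library, as CPM with TMM-scaled totals on a linear axis that starts at 0. Points are libraries, coloured by group, short lines are group means, and the grey line separates the diet experiment from the inhibitor experiment. Il6 is between 0.571 and 1.27 CPM in the vehicle livers and at most 0.0715 CPM in the SSO livers, and chow 3 is the highest diet library for Socs3, Osmr, Il1b and Tnf.

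The diet comparison asked how 7 days of HFD before surgery altered the liver transcriptome 40 hours after PHx. No member passed the test. Among the receptors, Lifr averaged 157 CPM in chow and 263 CPM in HFD. The values of the groups overlapped for Lifr, as they did for Il6ra, Il6st and Osmr. Stat3 was nearly equal in the group means, at 185 ± 53.2 CPM in chow and 183 ± 15.7 CPM in HFD (SD, n = 3). Il6 itself was close to the detection floor but had more counts in all 3 HFD livers than in any chow liver. With edgeR's quasi-likelihood test and Benjamini-Hochberg adjustment over 15589 genes, 2.32% of all genes were called at an adjusted p under 0.05, and 0 of the 7 members that had enough counts to be tested. At an unadjusted p under 0.05, which 15.0% of all genes reached, the count of members was also 0. The same held at an adjusted p under 0.05 by DESeq2, which called 5.94% of all genes, and by limma-voom, which called 2.32%.

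Il6, which encodes the cytokine that names the family, had 2, 2 and 1 counts in chow 1 to 3 and 13, 12 and 5 counts in HFD 1 to 3. These equal 0.0513, 0.0523 and 0.0307 CPM in chow and 0.358, 0.362 and 0.148 CPM in HFD. The groups did not overlap, and every chow library was below its floor of 3 counts. Over the group, 30 counts against 5 gave a ratio of 6.38 with a 95% counting interval of 2.45 to 21.1 (exact binomial). This interval covers counting error and not the spread between mice. An exact two-sided permutation test over the libraries gave p = 0.1, the smallest that 3 against 3 allows, and 0.4 after adjustment over the 4 such tests made on members below the count filter. Fitted without the filter, edgeR gave a log2 fold change of 2.60 with an adjusted p of 0.463. Among the genes tested, 21.9% had groups that did not overlap.

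Osm, whose product oncostatin M signals through Osmr and gp130, had no count in any chow library and 2, 0 and 2 counts in HFD 1 to 3. Every library was thus below the floor, and the exact two-sided permutation p was 0.4. Tnf, the gene of tumour necrosis factor, had 8, 4 and 14 counts in chow and 2, 8 and 4 counts in HFD, with an exact two-sided permutation p of 0.5. With 3 libraries against 3 the smallest p this test can give is 0.1, so it could not have called a difference in either gene.

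Il1b, which encodes interleukin-1 beta, stood at 0.564, 0.523 and 2.33 CPM in chow 1 to 3 and at 0.909, 0.906 and 1.36 CPM in HFD 1 to 3. Chow 3 was above all HFD livers and the other two chow livers were below them. The log2 fold change was -0.10 ± 0.61 (edgeR, ± SE, adjusted p = 0.967).

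Of the receptor chains, Lifr had 277, 96.2 and 98.4 CPM in chow 1 to 3 and 339, 251 and 199 CPM in HFD 1 to 3. HFD livers were above chow 2 and chow 3, but chow 1 lay inside the HFD range. For HFD against chow this gave a log2 fold change of 0.74 ± 0.45 (edgeR, adjusted p = 0.514), and without chow 1 it was 1.44 with an adjusted p of 0.0114. The library left out was the highest chow liver for Lifr, and that fit called 681 of 16026 genes tested. Il6ra, the chain that binds IL6, measured 33.6, 96.3 and 44.8 CPM in chow and 48.3, 38.8 and 58.9 CPM in HFD. Chow 2 held the highest level and the groups overlapped (log2 fold change -0.26 ± 0.39, edgeR adjusted p = 0.822).

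Il6st, the gene of gp130, measured 120, 165 and 183 CPM in chow and 180, 146 and 147 CPM in HFD, with a log2 fold change of 0.02 ± 0.18 (edgeR adjusted p = 0.984). Its SE was the smallest among the 7 tested members. Osmr measured 4.57, 6.33 and 19.6 CPM in chow and 10.6, 11.02 and 8.12 CPM in HFD. The HFD values lay between those of chow 2 and chow 3 (log2 fold change -0.03 ± 0.53, edgeR adjusted p = 0.989).

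Stat3 measured 124, 214 and 217 CPM in chow and 201, 172 and 177 CPM in HFD, with all HFD values inside the chow range (log2 fold change -0.02 ± 0.22, edgeR adjusted p = 0.986). Socs3, the feedback inhibitor that STAT3 induces, measured 27.3, 37.0 and 108 CPM in chow and 42.4, 36.4 and 31.5 CPM in HFD. Chow 3 was far above the other 5 livers, which lay between 27.3 and 42.4 CPM. The log2 fold change was -0.64 ± 0.52 (edgeR adjusted p = 0.636), and without chow 3 its sign turned, to 0.19.

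Genes that hepatocytes are known to switch on through IL6 and STAT3 followed the same liver. A list of 32 such genes, among them the serum amyloid A genes, haptoglobin and the fibrinogen chains, summed to 38276, 70051 and 148132 CPM in chow 1 to 3 and to 59415 to 67164 CPM in HFD. Chow 3 held the highest value of all 6 libraries for 24 of the 32 genes, among them Saa1, the gene of an acute-phase apolipoprotein, at 976, 2066 and 8848 CPM in chow 1 to 3 against 1337, 1635 and 1857 CPM in HFD. The share of all genes that were highest in chow 3 is not given, so nothing is read from this count. On the first principal component of the diet libraries, chow 3 scored -45.8, against -11.3 in chow 1 and -29.9 in chow 2. In the fit, 0 of 32 genes were called by edgeR, 5 were lower in HFD at an unadjusted p under 0.05 (7.47% of all genes), DESeq2 called 2 lower (2.59% of all genes) and limma-voom 0. The log2 fold change was below 0 for 29 of the 32 and its median was -0.48, against -0.02 over all genes. Without chow 3, 15 of the 32 were below 0 and the median was 0.07.

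**Figure D2:**
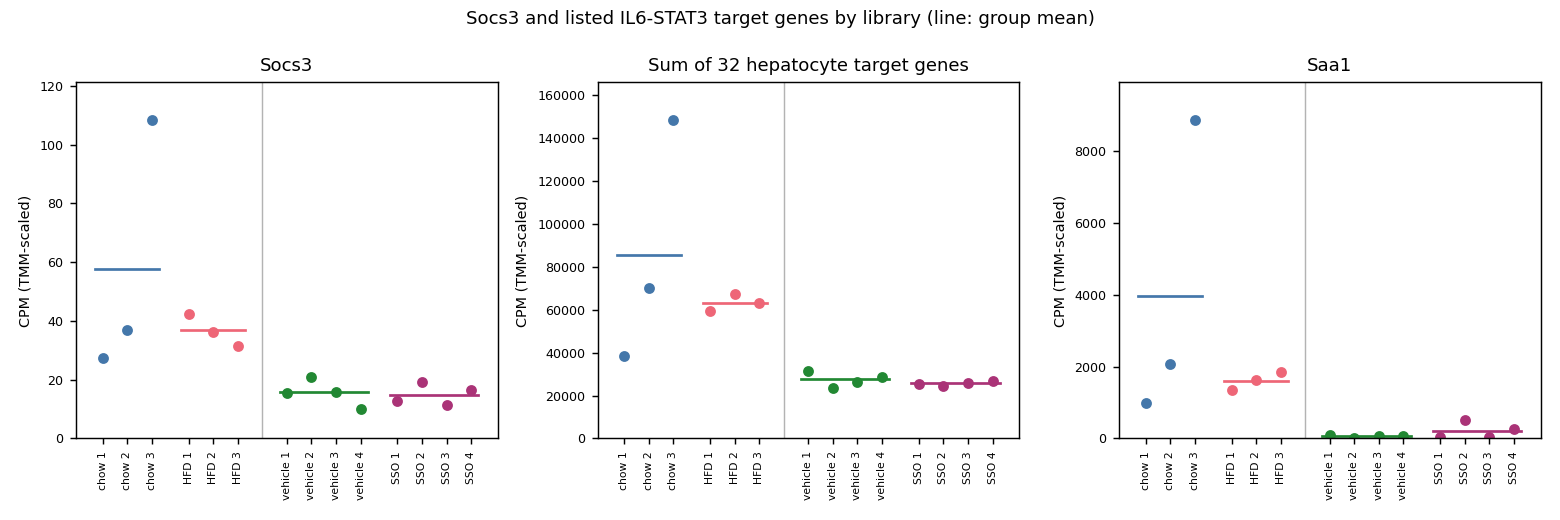
Socs3 (left), the sum over the 32 listed IL6 and STAT3 target genes (middle) and Saa1 (right) in each library, in CPM on linear axes that start at 0, with short lines for group means. Chow 3 is the highest library in all 3 plots, with 108 CPM of Socs3 and 148132 CPM summed over the targets, and in the Socs3 and target plots the inhibitor experiment lies below the diet experiment's HFD livers.

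The other genes of the pathway were read from 6 further lists in the diet fit. Of 9 JAK kinase and STAT genes, all had a log2 fold change above 0 (median 0.30) and 1 passed the test: Stat5a, a STAT factor that growth hormone and cytokines activate, rose in HFD. It measured 13.4, 17.8 and 12.9 CPM in chow 1 to 3 and 26.5, 24.6 and 25.9 CPM in HFD 1 to 3, with no overlap (log2 fold change 0.81 ± 0.15, edgeR adjusted p = 0.0332). DESeq2 and limma-voom called it too, and the call was lost without chow 3 (adjusted p = 0.0567) or without any 1 of the HFD livers (0.105 to 0.157). Of 15 inhibitors of the pathway, 0 were called by edgeR, DESeq2 or limma-voom and 0 had an unadjusted p under 0.05 (median 0.13). Those with the smallest p were Dusp22, a phosphatase gene, and Socs7, of the SOCS family, with log2 fold changes of 0.33 ± 0.17 and 0.17 ± 0.14 (adjusted p = 0.428 and 0.618).

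Other ligands and receptors of the family gave no edgeR call in the diet comparison. Of 8 ligand genes, 2 were tested. Clcf1, the gene of cardiotrophin-like cytokine factor 1, was the only one of these with an unadjusted p under 0.05, at 6.68 ± 1.66 CPM in chow and 4.24 ± 0.542 CPM in HFD (log2 fold change -0.65 ± 0.25, edgeR adjusted p = 0.251), and Ctf1, the gene of cardiotrophin-1, had -0.33 ± 0.24 (0.583). All 3 receptor genes were tested, with 0 at an unadjusted p under 0.05: Il11ra1, the interleukin-11 receptor chain, had a log2 fold change of 0.19 ± 0.15 (adjusted p = 0.609), and Cntfr, the receptor chain of ciliary neurotrophic factor, had -0.69 ± 0.51 (0.582). DESeq2 and limma-voom called none of these 5 tested genes.

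On the TNF and IL1 side, 17 of 18 receptor and signalling genes were tested, and edgeR, DESeq2 and limma-voom called 0, with 1 higher at an unadjusted p under 0.05 (median 0.02). That gene was Traf2, an adaptor of the TNF receptor, at 14.2 ± 1.62 CPM in chow and 18.4 ± 0.758 CPM in HFD (log2 fold change 0.37 ± 0.14, edgeR adjusted p = 0.251). Tradd, another adaptor, had 0.25 ± 0.15 (0.493). Of 18 NF-kB factors and feedback targets, edgeR called 0, with 1 higher and 2 lower at an unadjusted p under 0.05, DESeq2 called 1 higher and limma-voom 0 (median 0.06). Ccl2, the gene of a chemokine that draws monocytes, measured 0.103, 0.157 and 0.123 CPM in chow 1 to 3 and 0.771, 0.664 and 0.738 CPM in HFD 1 to 3, without overlap (log2 fold change 2.48 ± 0.55, edgeR adjusted p = 0.0573). Its adjusted p was 0.00948 by DESeq2 and 0.0448 with library-size scaling. With 4, 6 and 4 counts in chow and 28, 22 and 25 in HFD, Ccl2 had entered these tests only through the HFD livers. Nothing is therefore read from its p-values or from the DESeq2 call in this list. Ikbkg, the gene of the regulatory subunit NEMO of the IkB kinase, had -0.46 ± 0.13 (edgeR adjusted p = 0.120). In the list of IL6 and STAT3 targets the smallest p belonged to Hamp, the hepcidin gene, with -1.48 ± 0.44 (edgeR adjusted p = 0.166), and Cebpb, the gene of a transcription factor, with -0.62 ± 0.21 (0.205). Of the exon length of Cebpb, 20.7% overlaps another gene.

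The inhibitor comparison asked how SSO before surgery altered the liver transcriptome 48 hours after PHx. Il6 had 101 counts over the 4 vehicle livers and 5 over the 4 SSO livers. It passed the edgeR test, but it had entered that test only through the vehicle livers, and the call held in 2 of the 8 fits that each left out 1 library. Osmr was lower in every SSO liver than in any vehicle liver without passing the adjusted test, and Il1b and Stat3 had lower means in SSO with overlapping values. Socs3, Il6ra and Lifr had almost the same mean in both groups. For Lifr the vehicle mean rested on vehicle 2, at 593 CPM, and the medians were 140 CPM in vehicle and 260 CPM in SSO. Of 15788 genes tested with edgeR, 0.450% were called in either direction and 0.133% were lower in SSO. Among the members 9 of 10 were tested and 1 was called. At an unadjusted p under 0.05, which 20.5% of all genes reached (12.5% lower in SSO), there were Il6, Osmr, Il1b and Stat3, all lower in SSO. Since Il6 could enter only by being high in vehicle, nothing is read from these counts of members. DESeq2, which called 7.71% of all genes (4.79% lower in SSO), called Osmr and gave Il6 no adjusted p. By limma-voom, which called 0.412% of all genes, the count was 0.

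Il6 had 32, 28, 21 and 20 counts in vehicle 1 to 4 and 1, 1, 1 and 2 counts in SSO 1 to 4. As CPM these were 1.06, 1.27, 0.571 and 0.685 in vehicle and 0.0371, 0.0364, 0.0356 and 0.0715 in SSO. All SSO livers were below their floor of 3 counts, all vehicle livers were above it, and the groups did not overlap. The 101 counts in vehicle against 5 in SSO gave a ratio of 18.9 with a 95% counting interval of 7.82 to 59.3 (exact binomial). The log2 fold change was -4.18 ± 0.68 (edgeR, adjusted p = 0.0369). Because Il6 had entered the test only through the vehicle livers, nothing is read from its call or its p-values, here or in the fits below.

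The call of Il6 depended on single libraries. Its log2 fold change stayed between -4.46 and -3.97 when each library was left out in turn, but it was called in 2 of these 8 fits, without vehicle 2 (adjusted p = 0.00962) and without vehicle 4 (0.0278), and the adjusted p reached 0.170 in the others. In the same fits no gene of the whole table was called without vehicle 1 or without any 1 of the SSO livers. Without vehicle 1 and vehicle 3 together the log2 fold change was -4.29 with an adjusted p of 0.113, and limma-voom gave 0.073. Vehicle 1 and vehicle 3 held 53 of the 101 vehicle counts of Il6, which was therefore spread over all 4 livers.

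The other cytokine genes were not spread in this way. Osm had 14, 0, 19 and 0 counts in vehicle 1 to 4 and 0, 0, 4 and 2 counts in SSO 1 to 4. All 33 vehicle counts came from vehicle 1 and vehicle 3, and the group ranges overlapped. The ratio of summed counts was 5.13 (95% counting interval 2.12 to 14.99), while the exact two-sided permutation p over the libraries was 0.429, or 0.5 after adjustment over the 4 such tests.

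Tnf measured 2.28, 0, 4.67 and 0.137 CPM in vehicle 1 to 4 and 0.408, 1.16, 0.570 and 0.143 CPM in SSO 1 to 4. Vehicle 1 and vehicle 3 held 241 of the 245 vehicle counts. Vehicle 2 had 0 counts, and vehicle 4 had 4 counts, the same as SSO 4. The log2 fold change was -1.64 ± 1.21 (edgeR adjusted p = 0.461), and without vehicle 1 and vehicle 3 it was 2.88 with an adjusted p of 0.409. Il1b measured 1.78, 4.49, 3.32 and 0.206 CPM in vehicle and 0.631, 0.0364, 0.855 and 0.643 CPM in SSO. Here vehicle 1, 2 and 3 were above all SSO livers and vehicle 4 was not (log2 fold change -2.16 ± 0.90, edgeR adjusted p = 0.215).

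Osmr, the oncostatin M receptor chain, measured 16.1, 5.90, 20.1 and 5.79 CPM in vehicle 1 to 4 and 5.16, 4.001, 2.67 and 4.61 CPM in SSO 1 to 4. The groups did not overlap, though vehicle 2 and vehicle 4 were close to the SSO range. SSO against vehicle gave a log2 fold change of -1.54 ± 0.43 (edgeR adjusted p = 0.113, DESeq2 adjusted p = 0.0139). Without vehicle 2 the edgeR adjusted p was 0.0148, and without vehicle 1 and vehicle 3 together the log2 fold change was -0.50 (adjusted p = 0.540). The share of all genes called without vehicle 2 is not given, so nothing is read from the adjusted p of 0.0148. Groups that did not overlap were found for 11.8% of all genes tested, and for 5.62% with SSO as the lower group. Osmr was the member with such groups besides Il6.

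Il6st measured 180, 95.9, 122 and 93.5 CPM in vehicle and 88.4, 93.9, 97.7 and 87.8 CPM in SSO. Again vehicle 1 and vehicle 3 were the highest, and vehicle 2 and vehicle 4 lay inside the SSO range (log2 fold change -0.42 ± 0.22, edgeR adjusted p = 0.299). Il6ra measured 36.1, 20.2, 23.5 and 39.1 CPM in vehicle and 26.5, 38.0, 21.9 and 30.7 CPM in SSO, fully overlapping (log2 fold change -0.02 ± 0.24, edgeR adjusted p = 0.967).

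Lifr, the chain that binds leukaemia inhibitory factor, measured 128, 593, 137 and 142 CPM in vehicle and 292, 144, 341 and 227 CPM in SSO. Vehicle 2 was the highest of the 8 livers, and the other 3 vehicle livers were below all SSO livers. With all libraries the log2 fold change was 0.01 ± 0.52 (edgeR adjusted p = 0.996), and without vehicle 2 it was 0.89 with an adjusted p of 0.0462. The library left out was the highest for Lifr, and the share of all genes called without it is not given. Nothing is therefore read from that adjusted p.

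Stat3 measured 131, 134, 84.9 and 132 CPM in vehicle and 89.6, 81.7, 95.4 and 93.5 CPM in SSO. Only vehicle 3 lay in the SSO range (log2 fold change -0.42 ± 0.18, edgeR adjusted p = 0.223). Socs3 measured 15.5, 21.0, 15.9 and 10.1 CPM in vehicle and 12.8, 19.3, 11.3 and 16.4 CPM in SSO. Vehicle 1 and vehicle 3, which held all Osm and nearly all Tnf counts of the vehicle group, were in the middle of this range (log2 fold change -0.07 ± 0.25, edgeR adjusted p = 0.902).

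**Figure D3:**
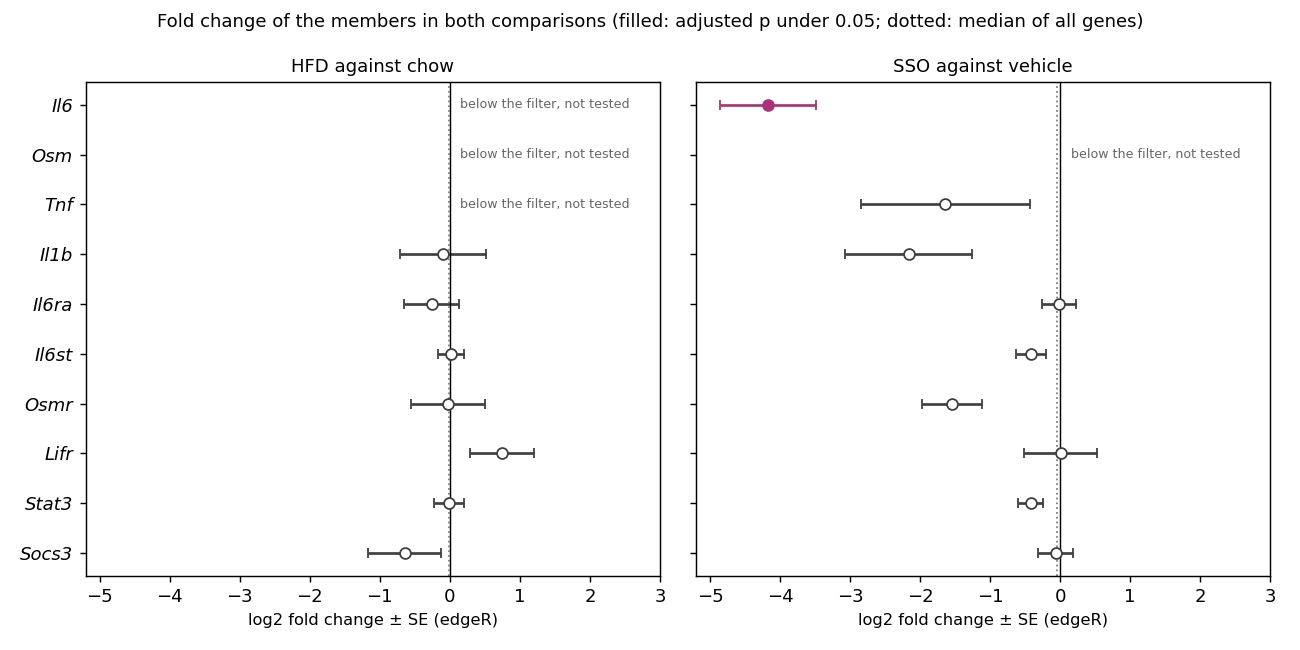
Log2 fold change with its SE (edgeR) for each member, for HFD against chow (left) and SSO against vehicle (right). The filled point, Il6 in the inhibitor comparison at -4.18, is the only one with an adjusted p under 0.05, members below the count filter carry no point, and dotted lines mark the median of all genes (-0.02 and -0.04). Il6 entered that test only through the vehicle livers, so nothing is read from its being filled.

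Markers of monocytes and recruited macrophages were high in the same 2 vehicle livers. The 10 listed markers summed to 901 to 2105 CPM in vehicle and 681 to 813 CPM in SSO, most of it Fn1, a gene that hepatocytes also express. Without Fn1 the sum was 422, 45.9, 485 and 71.0 CPM in vehicle 1 to 4 and 28.5 to 36.3 CPM in SSO. Of the 9 tested markers, edgeR and limma-voom called 0 (median log2 fold change -2.15). At an unadjusted p under 0.05, 7 were lower in SSO (12.5% of all genes), and DESeq2 called 5 lower (4.79% of all genes). Without vehicle 1 and vehicle 3 the median was -0.37, with 0 called by edgeR and 1 lower at an unadjusted p under 0.05. Kupffer cell markers summed to 742, 180, 637 and 178 CPM in vehicle and to 297 to 509 CPM in SSO, with 0 of 10 called by any of the 3 tests and 0 at an unadjusted p under 0.05 (median log2 fold change -0.21). Without vehicle 1 and vehicle 3, all 10 were higher in SSO at an unadjusted p under 0.05 (median 1.10), and edgeR called Cd5l and Marco, both genes of macrophage proteins. The 2 livers left out were those with the highest sums of these markers. The share of all genes called without them is not given, so nothing is read from such counts, here or for other lists. Neutrophil markers summed to between 4.40 and 63.2 CPM in vehicle and 9.40 and 17.0 CPM in SSO, and their median log2 fold change went from -0.63 to 2.46 without the same 2 livers. Ly6g, which defines neutrophils, had 4 counts in vehicle 1 and none in the other 7 libraries. The part of these cells in the cytokine and receptor values was not tested, and in bulk tissue fewer cells of a type and less RNA per cell cannot be told apart. In the diet experiment the monocyte markers without Fn1 summed to between 26.2 and 41.3 CPM in chow and between 35.1 and 46.8 CPM in HFD.

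**Figure D4:**
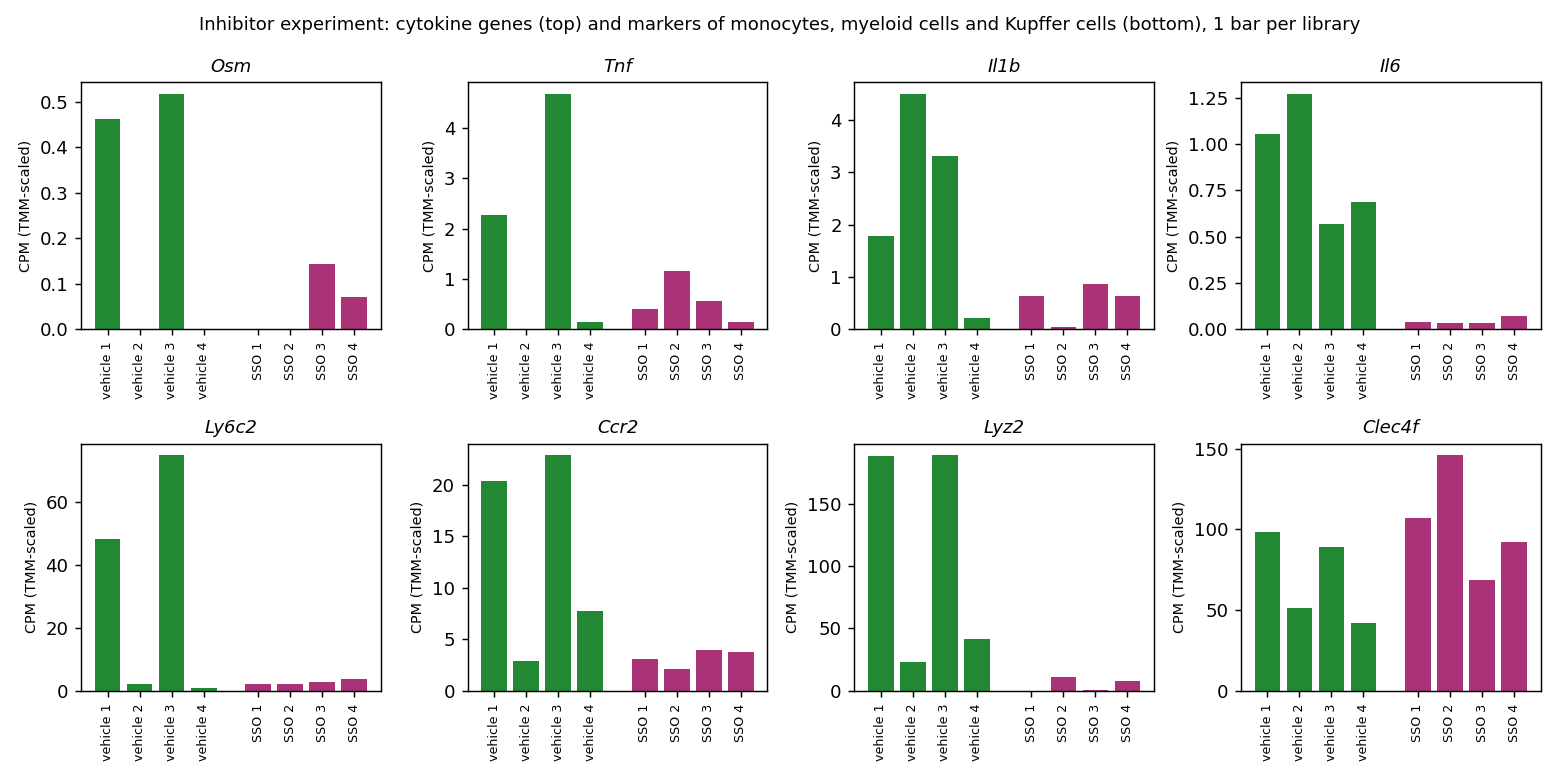
CPM of the cytokine genes Osm, Tnf, Il1b and Il6 (top) and of the markers Ly6c2 and Ccr2 (monocytes), Lyz2 (myeloid cells) and Clec4f (Kupffer cells) (bottom) in the 8 libraries of the inhibitor experiment, 1 bar per library on linear axes that start at 0. Osm, Tnf, Ly6c2, Ccr2 and Lyz2 are highest in vehicle 1 and vehicle 3, whereas Il6 is at least 0.571 CPM in all 4 vehicle livers and Clec4f is present in all 8 libraries. Most other listed Kupffer cell markers, which are not plotted, were highest in vehicle 1 and vehicle 3.

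Among the other receptors of the family, Il11ra1 rose in the SSO livers. It measured 37.8, 70.0, 40.7 and 53.8 CPM in vehicle 1 to 4 and 105, 124, 115 and 104 CPM in SSO 1 to 4, without overlap (log2 fold change 1.15 ± 0.21, edgeR adjusted p = 0.0459). DESeq2 and limma-voom also called it. The edgeR call was lost without vehicle 1, without vehicle 3 or without any 1 of the SSO livers (adjusted p 0.118 to 0.190), and without vehicle 1 and vehicle 3 together the log2 fold change was 0.86 (0.0657). It was the 1 gene called among the 3 other receptors. Of 8 other ligand genes 4 were tested, and edgeR, DESeq2 and limma-voom called 0, with 0 at an unadjusted p under 0.05. The smallest p belonged to Clcf1, at 16.7 ± 16.01 CPM in vehicle and 7.72 ± 3.08 CPM in SSO (log2 fold change -1.11 ± 0.72, edgeR adjusted p = 0.401), and to Ebi3, a subunit gene of interleukin-27, with -0.51 ± 0.71 (0.709). Of the exon length of Ebi3, 23.4% overlaps another gene.

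Downstream of the receptors, 0 of 9 JAK kinase and STAT genes were called by edgeR or limma-voom (median log2 fold change -0.15, against -0.04 over all genes). At an unadjusted p under 0.05, 1 was lower in SSO (12.5% of all genes), and DESeq2 called 1 lower (4.79% of all genes). Stat5b, a STAT factor close to Stat5a, had a log2 fold change of 0.40 ± 0.19 (edgeR adjusted p = 0.262). Of 15 inhibitors, edgeR and limma-voom called 0 (median -0.15). At an unadjusted p under 0.05, 1 was higher and 3 lower (20.5% of all genes in either direction, 12.5% lower). DESeq2 called 1 lower (4.79% of all genes). That was Socs6, of the same family as Socs3, at 18.4 ± 1.45 CPM in vehicle and 12.5 ± 1.73 CPM in SSO, without overlap (-0.56 ± 0.16, edgeR adjusted p = 0.124). Ndufa13, a gene of a mitochondrial subunit also known to bind STAT3, had 0.51 ± 0.21 (0.208), and 30% of its exon length overlaps another gene.

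The 32 hepatocyte targets of IL6 and STAT3 showed no common direction in the inhibitor comparison. Of 31 tested, edgeR and limma-voom called 0. At an unadjusted p under 0.05, 5 were higher and 9 lower in SSO, and DESeq2 called 4 higher and 7 lower. Over all genes, 20.5% reached that unadjusted p (12.5% lower in SSO), and DESeq2 called 7.71% (4.79% lower). The median log2 fold change of the targets was -0.04, that of all genes. The summed level was 23726 to 31283 CPM in vehicle and 24631 to 26998 CPM in SSO. Junb, an AP-1 subunit gene and an immediate-early target, measured 49.6, 41.2, 66.4 and 21.2 CPM in vehicle 1 to 4 and 15.8, 19.4, 14.03 and 14.01 CPM in SSO 1 to 4, without overlap (-1.50 ± 0.30, edgeR adjusted p = 0.0674, DESeq2 0.000514). Steap4, a metalloreductase gene, measured 200, 77.8, 106 and 110 CPM in vehicle and 46.9, 41.5, 65.9 and 44.4 CPM in SSO, again without overlap (-1.31 ± 0.28, edgeR adjusted p = 0.0866, DESeq2 0.00127).

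On the TNF and IL1 side, edgeR and limma-voom called 0 of 17 tested receptor and signalling genes (median -0.23). At an unadjusted p under 0.05, 3 were lower in SSO (12.5% of all genes), and DESeq2 called 1 lower (4.79% of all genes). That was Myd88, the adaptor of the IL1 receptor and of Toll-like receptors, with -0.77 ± 0.21 (edgeR adjusted p = 0.111, DESeq2 0.0311), and 11.3% of its exon length overlaps a gene on the other strand. Irak1, the kinase gene next in that path, had -0.40 ± 0.15 (edgeR adjusted p = 0.179). Of 18 NF-kB factors and feedback targets, edgeR and limma-voom called 0 (median -0.46). At an unadjusted p under 0.05, 1 was higher and 8 lower in SSO (20.5% of all genes in either direction, 12.5% lower). DESeq2 called 1 higher and 5 lower (7.71% of all genes in either direction, 4.79% lower). Cxcl1, a neutrophil-attracting chemokine gene, had -2.12 ± 0.50 (edgeR adjusted p = 0.106), and Rela, the p65 subunit gene of NF-kB, measured 53.8 ± 7.75 CPM in vehicle and 37.8 ± 0.567 CPM in SSO without overlap (-0.51 ± 0.14, edgeR adjusted p = 0.111). Without vehicle 1 and vehicle 3, the median of this list was -0.04, with 0 called by edgeR and 3 lower at an unadjusted p under 0.05. The same 2 vehicle livers were those with the high monocyte markers.

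**Figure D5:**
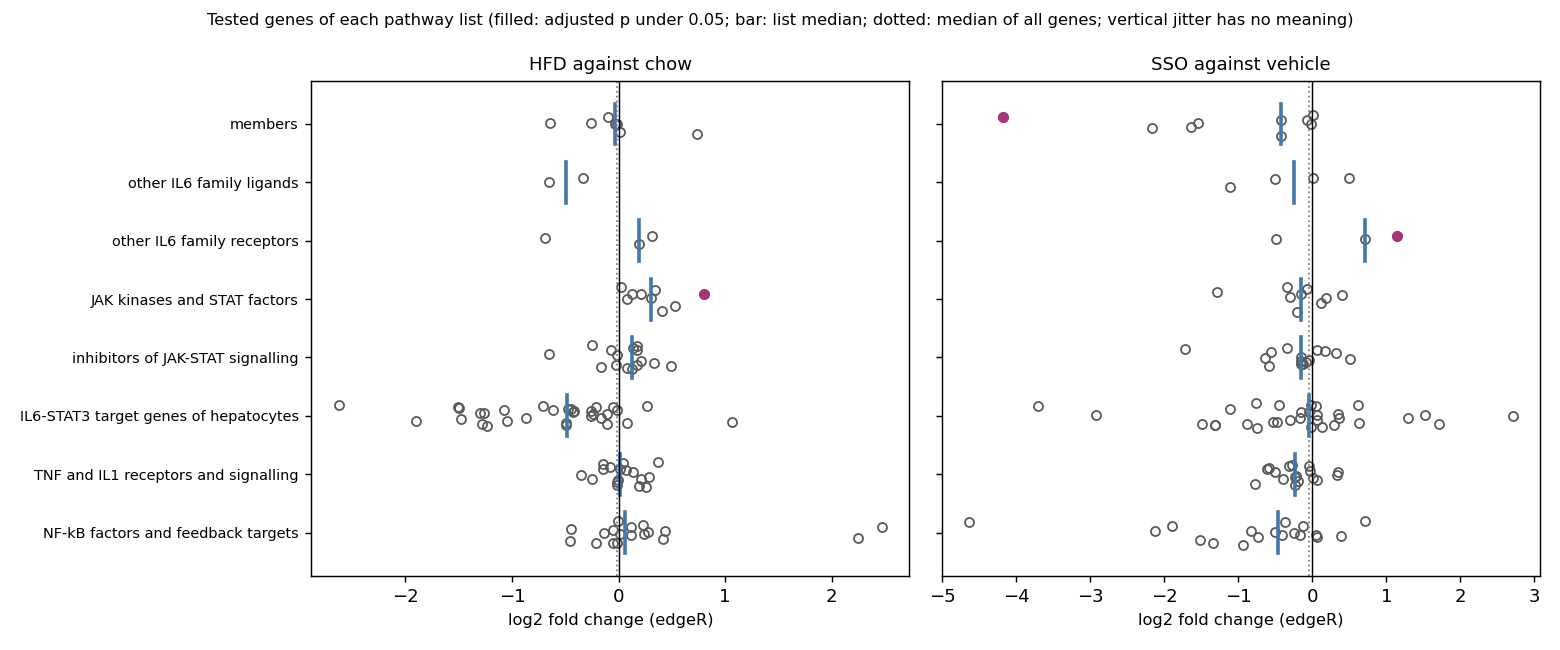
Log2 fold change (edgeR) of every tested gene of the members and of the 7 pathway lists, for HFD against chow (left) and SSO against vehicle (right). Each circle is a gene, filled circles have an adjusted p under 0.05 (Stat5a on the left, Il6 and Il11ra1 on the right), bars are list medians and the dotted line is the median of all genes, and the hepatocyte target list lies mostly below 0 on the left (29 of 32 genes) and on both sides of 0 on the right. Il6 entered the test on the right only through the vehicle livers, so nothing is read from its being filled.

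The 2 experiments were not compared by a test, since diet, hour after surgery, sex transcripts and table all differ between them. Side by side, Il6 averaged 0.0448 CPM in chow and 0.289 CPM in HFD at 40 hours, and 0.895 CPM in vehicle and 0.0451 CPM in SSO at 48 hours. Socs3 averaged 57.5 CPM in chow, 36.8 in HFD, 15.6 in vehicle and 14.95 in SSO. The highest library was 2.87 times the lowest for Il6ra and 1.52 times for Il6st in the diet experiment, and 1.94 and 2.05 times in the inhibitor experiment. No such ratio is given for Il6, whose lowest libraries lay under the floor.

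Genes with the pattern most like 3 members were sought over the 14 libraries by the root-mean-square difference in log2 CPM after centring each gene within its experiment, among 13786 genes. For Socs3 they were Flot1 (0.246), Ifitm2 (0.268) and Itih3 (0.272), the last of which was also on the target list. Their correlations with Socs3 were 0.97, 0.96 and 0.91 in diet and 0.45, 0.66 and 0.71 in inhibitor libraries. For Osmr they were Pmepa1 (0.345), Entpd7 (0.348) and Arfgap3 (0.354), with correlations of 0.63, 0.91 and 0.81 in diet and 0.99, 0.89 and 0.93 in inhibitor. For Il6ra they were Klf13 (0.204), Marveld1 (0.223) and Dhrs7 (0.231), with 0.86, 0.93 and 0.89 in diet and 0.89, 0.85 and 0.93 in inhibitor. The values in brackets are log2 differences, and they share the libraries and so the chow 3, vehicle 1 and vehicle 3 livers. They describe likeness in these livers only.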

How the data were processed

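Gene-level read counts of 14 liver libraries (3 chow, 3 HFD, 4 vehicle, 4 SSO) were used as deposited. Per the labels' protocols, poly(A) RNA was fragmented and amplified by PCR. The submitters' processing notes name HISAT2 2.2.1 (an aligner), featureCounts 2.0.2 (a read counter), Trim Galore 0.6.1 and DESeq2, with GRCm38 (mm10). Strand use in counting is not given in the sources used here. The authors deposited raw counts for 55487 Ensembl identifiers, of which 55227 matched a GENCODE M21 symbol.

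Each table was fitted on its own, without covariates, with edgeR 4.0.16 (TMM, filterByExpr, robust quasi-likelihood test, R 4.3.3) and p-values adjusted by Benjamini-Hochberg over all genes tested. Simulated counts with known changes were used to test the fit. CPM used TMM-scaled totals, and levels per length used the union of exons. Members below the filter were tested by exact two-sided permutation (scipy 1.17.1). Alternatives were DESeq2 1.42.0, limma-voom (limma 3.58.1), other scalings and filters, a replicate block, and leaving out libraries. Names printed from a pathway list were its called genes, up to 4, or else the 2 with the smallest p. Genes named by library outside that rule were chosen after their values were seen. The members, lists and the rule were chosen with earlier results of these data known. The table of sorted macrophages (12 columns) was held in part, without column names, and was not used here, nor were the single-cell data. One gene that the naming rule picks is not reported here.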

Additional observations from a re-analysis of the deposited data

Results flagged for a closer look

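Each member's CPM, the summed level of each of the 10 marker lists and that of the hepatocyte target list were screened, in the vehicle and in the SSO group, for a library far from the other 3. Dixon's test at the 95% level was used, which picks out about 1 in 20 groups by chance. Of 42 groups screened, 3 gave such a library. Lifr stood at 593 CPM in vehicle 2, against 142 CPM in the next highest vehicle liver. Stat3 stood at 84.9 CPM in vehicle 3, against 131 to 134 CPM in the other vehicle livers. Il6 stood at 0.0715 CPM in SSO 4, which is 2 counts, against 1 count in each of the other SSO livers (0.0356 to 0.0371 CPM). Groups of 3 were not screened.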

How the results depend on the processing

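No member was called in the diet comparison under the other scalings, filters and tests, and leaving out 1 library at a time gave 0 to 1 (Lifr, without chow 1). In the inhibitor comparison the count of 1 became 0 by limma-voom, with the replicate block, and without vehicle 1 and vehicle 3 together, and it ran from 0 to 3 when single libraries were left out (3 without vehicle 2: Il6, Lifr and Osmr). The share of all genes called without vehicle 2 is not given, so nothing is read from that count. Whole-table calls differed by over 1.5 times: 361 for diet by edgeR against 926 by DESeq2, 672 without a filter, 206 with the replicate block and 86 to 681 without 1 library, and 71 for the inhibitor against 1218 by DESeq2, 205 without a filter, 37 with library-size scaling, 47 with the replicate block and 0 to 2646 without 1 library. Same-numbered libraries did not deviate together (correlations -0.12 to 0.02 in diet, -0.10 to 0.05 in inhibitor), so they gave no sign of pairing by number. With so few libraries this cannot show that the numbers carry no pairing. With the block no member was called, and the calls of Il6 (adjusted p = 0.110), Stat5a in the diet comparison (0.0747) and Il11ra1 in the inhibitor comparison (0.0626) were lost.

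Signs of small diet differences turned with library-size scaling, limma-voom and the replicate block: Osmr to 0.17, 0.30 and 0.27, Stat3 to 0.15, 0.023 and 0.024, and Il1b to 0.10, 0.29 and 0.20. In the inhibitor comparison Lifr was -0.0097 with library-size scaling, and without vehicle 1 and vehicle 3 Lifr was -0.54, Tnf 2.88 and Clcf1 0.72. The cause was not tested. Leaving out 1 library at a time, the diet log2 fold change ran from -0.53 to 0.31 for Il6ra, -0.14 to 0.14 for Il6st, -0.37 to 0.86 for Osmr, -0.23 to 0.11 for Stat3, -0.97 to 0.19 for Socs3 and -0.45 to 0.95 for Il1b, and that of the inhibitor from -0.17 to 0.15 for Il6ra, -0.21 to 0.89 for Lifr and -0.21 to 0.11 for Socs3. Of the order by level per length, 2 members changed place in the diet experiment with the longest transcript as length, and in the inhibitor experiment 2 with library-size scaling and 3 with the longest transcript.

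Few counts limit Il6, Osm and Tnf, and 3 or 4 libraries per group limit every test. The contrasts between sorted macrophage groups were not run.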

Other observations

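Lyz2, a lysozyme gene that monocytes and Kupffer cells express, was nearly missing from 2 SSO livers that held other Kupffer cell transcripts. It measured 188, 23.0, 189 and 41.6 CPM in vehicle 1 to 4 and 0.0371, 11.3, 0.427 and 8.00 CPM in SSO 1 to 4. Clec4f, a lectin gene that defines Kupffer cells, measured 98.1, 51.0, 88.9 and 41.9 CPM in vehicle and 107, 146, 68.7 and 92.4 CPM in SSO. Its highest values were thus in SSO livers, which was not so for most of its list. All listed Kupffer cell markers except Clec4f and Timd4 were highest in a vehicle liver. The list summed to 742, 180, 637 and 178 CPM in vehicle 1 to 4 and to between 297 and 509 CPM in SSO. In the diet experiment Lyz2 lay between 15.5 and 29.1 CPM in all 6 livers. Lyz2 and Clec4f were singled out after their values were seen, and no test was made.

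The 5 listed adipocyte markers summed to between 0 and 0.246 CPM over the 14 libraries. Adipoq, Lep and Retn had no count in any of them, and the sum came from Cfd and, in SSO 1, Plin1. Ccl2, below 1 CPM in every diet liver, measured 42.3, 2.77, 56.3 and 0.411 CPM in vehicle 1 to 4 and 0.509 to 1.57 CPM in SSO, following the order of Osm, Tnf and Ly6c2 in placing vehicle 1 and vehicle 3 at the top.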
